A study of Mus musculus with 12 samples.

Results

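The 8 genes H2-Q4, H2-Q6, H2-Q7, H2-T22, H2-T23, H2-M3, Cd1d1 and Mr1 encode non-classical MHC class I heavy chains, and were taken by name from the 55401 genes of the count table after Ensembl identifiers had been matched to symbols. All 8 had a row in the table and all 8 were expressed highly enough to be tested. RNA came from Sp37A3, an immature dendritic cell (DC) line from C57BL/6 mouse spleen that was grown with GM-CSF and M-CSF. CtrV cells carried the empty lentiviral CRISPR vector, and EKO cells were a pool of single-cell clones edited with Cas9 at Siglece, which encodes the inhibitory sialic acid receptor Siglec-E. Cells of each line were either left unpulsed (ut) or pulsed with ovalbumin (OVA), all of them were stimulated with LPS, and RNA was taken after 24 h. This gave the 4 groups CtrV_ut, CtrV_OVA, EKO_ut and EKO_OVA with 3 numbered libraries each. Nothing in the labels says that replicates were separate cultures, so p-values measure the spread between these libraries, and a single pool of clones stands for the edited line, so the edit and that pool cannot be told apart.

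Library totals lay between 27116200 and 39698600 counts, so that 3 counts, taken as the smallest visible level, equal 0.0785 to 0.11 CPM (TMM-scaled counts relative to library size). Siglece mRNA lay at 150 to 163 CPM in the CtrV libraries and at 166 to 235 CPM in the EKO-labelled libraries. The mRNA of the targeted gene was therefore not lower under the EKO label, and every direction given here is the direction of the labels. The paper reports that the pooled clones showed minimal or no Siglec-E expression, and protein was not measured in these libraries. Replicate 1 of both EKO-labelled groups stood apart: the chi-square of its counts, divided by the degrees of freedom, was 23.7 to 41.8 against replicates 2 and 3, which differed from each other by 6.98 and 11. CtrV_ut replicate 3 stood apart in the same way, with 23.6 and 21.7 against replicates 1 and 2, which differed by 4.58. CtrV_OVA replicate 1 did so to a lesser degree, with 13.2 and 19.5 against replicates 2 and 3, which differed by 7.43. Of 11 DC markers 10 were tested, with Itgax at 858 to 1089 CPM in CtrV and 823 to 879 CPM in EKO-labelled libraries, and Clec9a at or below 0.0332 CPM. Irf8 (178 to 295 against 80.1 to 118 CPM) and H2-Ab1 (4169 to 4369 against 2758 to 3160 CPM) lay higher in every EKO-labelled library than in any CtrV library. So did Batf3 (5.72 to 14.8 against 2.45 to 4.59 CPM) and Xcr1 (0.863 to 1.38 against 0.179 to 0.398 CPM). All other DC markers overlapped, and Cd74 (13959 to 16484 against 16154 to 18270 CPM) and Ciita (556 to 780 against 714 to 932 CPM) reached lower in EKO-labelled libraries. Summed over the 11 DC markers, the level was 21294 to 23227 CPM in CtrV and 20123 to 22546 CPM in EKO-labelled libraries. Cd74 and H2-Ab1 gave most of this sum, so it says little about the rarer markers. The part of the DC marker shifts in the results was not tested. Summed over the 7 macrophage markers, all of them tested, the level was 1337 to 1524 CPM in CtrV and 1756 to 1917 CPM in EKO-labelled libraries, and its part in the differences between the lines was not tested. Neutrophil markers summed to at most 0.103 CPM with Ly6g, S100a8, S100a9 and Elane at 0, and NK cell markers to 0.179 to 0.486 CPM in CtrV and 0.198 to 0.477 CPM in EKO-labelled libraries, with Ncr1 and Prf1 at 0 and Klrb1c giving the sum. T cell markers summed to 0.0604 to 0.27 CPM in CtrV and 0.418 to 1.57 CPM in EKO-labelled libraries, with Cd3e and Trac at 0 and Cd8a at up to 1.12 CPM, and B cell markers to 0.0358 to 0.212 CPM and 0.45 to 1.07 CPM. None of these T, B and NK cell markers was expressed highly enough to be tested, and their part in the results was not tested. In such bulk samples, fewer cells of a type and less RNA per cell cannot be told apart.

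Non-classical class I chains have the fold of the classical transplantation antigens but vary little between individuals, and most of them show a narrow set of ligands to specialised lymphocytes. H2-T23 (Qa-1) presents leader peptides of other class I chains to the inhibitory NKG2A receptor of NK and T cells, H2-Q7 encodes Qa-2 together with its neighbours, H2-T22 is bound by gamma delta T cells, and H2-M3 presents N-formylated bacterial peptides. CD1d presents lipids to NKT cells, and MR1 presents vitamin B metabolites to MAIT cells. Most of these chains pair with the light chain beta2-microglobulin, and class I promoters hold an upstream enhancer with an NF-kappaB site and an interferon response element.

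The promoter stretches below are those around an interferon-type motif shared by the classical genes H2-K1 and H2-D1 and by 5 members. They are shown so that the letters of members can be set beside those of the classical genes, and nothing about the responses is read from them. Sequences are RefSeq promoters on GRCm38.p6, read 5′ to 3′ on the strand of the gene. Capitals mark GGGATTCCC, the kappaB site of the class I enhancer, and GTTTCACTT, the reverse complement of AAGTGAAAC, a motif that was chosen after the promoters had been read.
H2-K1: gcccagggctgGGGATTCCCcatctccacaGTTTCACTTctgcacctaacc
H2-D1: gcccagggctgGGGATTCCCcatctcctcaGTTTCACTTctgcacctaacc
H2-Q4: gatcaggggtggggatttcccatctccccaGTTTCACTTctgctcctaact
H2-Q6: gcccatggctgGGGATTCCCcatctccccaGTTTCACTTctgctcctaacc
H2-Q7: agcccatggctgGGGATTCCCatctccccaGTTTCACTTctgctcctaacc
H2-T22: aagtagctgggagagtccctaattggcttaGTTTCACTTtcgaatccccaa
H2-M3: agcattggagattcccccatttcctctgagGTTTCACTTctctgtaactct

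The stretches lie at chr17:34000418-34000468 on the minus strand for H2-K1, and on the plus strand at chr17:35262913-35262963 for H2-D1, chr17:35379433-35379483 for H2-Q4, chr17:35424667-35424717 for H2-Q6, chr17:35439011-35439061 for H2-Q7 and chr17:37270102-37270152 for H2-M3. The H2-T22 stretch lies at chr17:36042914-36042964 on the minus strand. GTTTCACTT began 154 bases before the start site in H2-Q4, 153 in H2-Q6, 114 in H2-Q7, 192 in H2-T22 and 102 in H2-M3.

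A promoter window, from 250 bases before to 50 bases after the start site, was at hand for 7 of the 8 members, all but Cd1d1. On both strands, AAGTGAAAC stood in 5 of these 7 windows and in 0.399% of 32851 mouse promoters. GGGATTCCC stood in 2 of the 7 windows, those of H2-Q6 and H2-Q7, and in 0.353% of all promoters. GAAANNGAA, the core of the interferon-stimulated response element, was found in H2-T22 and H2-T23 and in 8.56% of all promoters; in H2-T22 it overlaps AAGTGAAAC. TGACGT was found in H2-Q4, H2-Q7 and H2-T22 (7.51%), and ATTGG in every window except that of Mr1 (37.4%). The window of H2-T23 is set on a RefSeq start site that differs from the GENCODE one. These matches describe letters and not bound sites.

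The members differ in how far they can be told from their relatives. By their longest open reading frames, H2-Q6 and H2-Q7 were identical at 87.7% of aligned residues and H2-Q4 and H2-Q6 at 83.4%. Against the classical chain H2-K1, identity was 75.4% for H2-T23, 59.2% for H2-M3, 53.2% for H2-T22, 40.5% for Mr1 and 24.6% for Cd1d1. Of all 50-base runs in the coding transcripts, 43.9% in H2-T22, 39.2% in H2-Q4, 35% in H2-Q6, 34.9% in H2-Q7, 29.8% in H2-T23 and 25.1% in Cd1d1 also occurred in another gene. The share was 0.576% in H2-M3 and 0 in Mr1. Runs were matched on both strands, and Gm11131, which overlaps H2-Q4 on the other strand, held 16.1% of the H2-Q4 runs. With 100-base runs the shares of the H2-Q and H2-T members and Cd1d1 were lower, from 7.28% in H2-T23 to 17.2% in H2-Q7. Reads of the H2-Q and H2-T genes and of Cd1d1 may therefore have been placed on another gene, and their levels are uncertain to that extent. H2-Q4 shares 19.1% and H2-T22 shares 29.4% of exon bases with a gene on the other strand, and the sources used here do not give the strand setting of the counting.

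EKO-labelled and CtrV cells were first compared after OVA pulsing, where the study asked how Siglec-E affects the response of DCs to antigen and LPS. H2-Q6, H2-Q7, H2-T22 and H2-T23 were higher in EKO-labelled cells, from 1.45-fold for H2-T23 to 2.7-fold for H2-Q6, while H2-Q4, H2-M3, Cd1d1 and Mr1 did not pass the test. This made 4 of 8 members higher and 0 lower, where 25.1% of the 14079 tested genes were higher and 21.9% lower. In either direction 47% of all genes passed, so the number of members that passed was close to the background. Libraries of EKO_OVA lay entirely above those of CtrV_OVA for 3 members (H2-Q7, H2-T22 and H2-T23) and for 27% of genes, and entirely below for 0 members and 25.9% of genes. The median log2 fold change of the members was 0.48 against 0.00064 for all tested genes. Without OVA the same 4 members passed and again none was lower, against 24.5% of genes higher, 21.9% lower and 46.4% in either direction. The median there was 0.40 against 0.00013, and all EKO_ut libraries were above all CtrV_ut libraries for 4 members (24.1% of genes) and below for 0 (22.9%). Without replicate 1 of the EKO-labelled groups 4 members and 5973 genes passed with OVA, and 2 members, H2-T22 and H2-T23, and 6199 genes without. Leaving out CtrV_ut replicate 3, the same 4 members passed without OVA. Tests were edgeR quasi-likelihood fits with the replicate number as a covariate, and a call is an adjusted p under 0.05 over all tested genes.

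**Figure D1:**
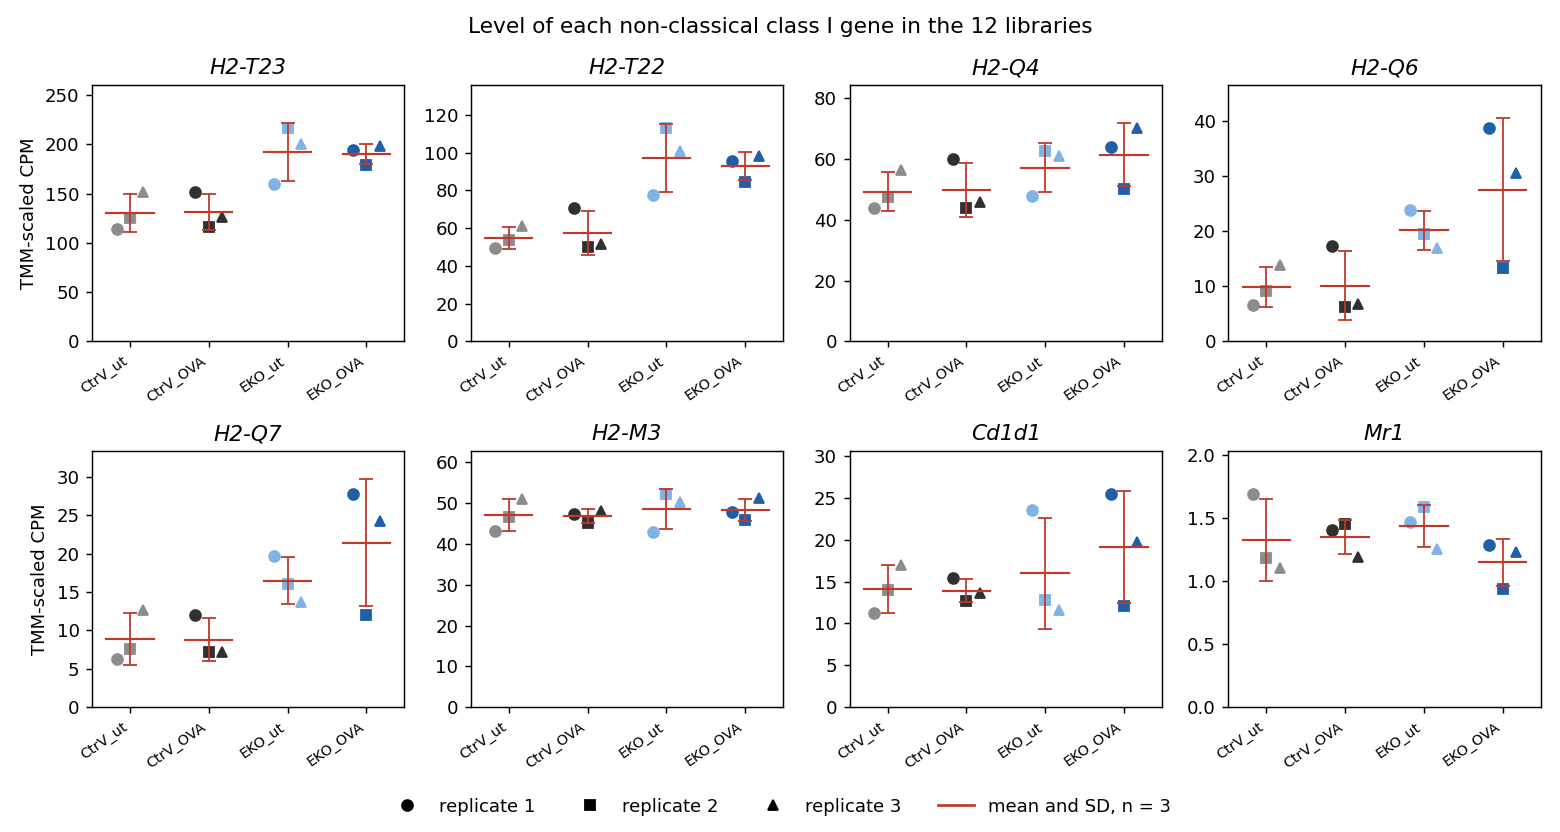
TMM-scaled CPM of the 8 members in each library, in 4 groups of 3 (symbols mark the replicate number, red bars the mean and SD). The 6 EKO-labelled libraries lie above the 6 CtrV libraries for H2-T23 (160 to 217 against 114 to 152 CPM) and H2-T22 (77.7 to 113 against 49.4 to 70.6 CPM), and the ranges overlap for the other 6 genes.

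H2-T23 (ENSMUSG00000067212; GRCm38 chromosome 17, 36029773 to 36032855, minus strand) had the highest counts of the 8. It was at 114, 125 and 151 CPM in CtrV_ut, at 152, 116 and 126 CPM in CtrV_OVA, at 160, 217 and 200 CPM in EKO_ut and at 194, 179 and 198 CPM in EKO_OVA, for replicates 1, 2 and 3. Every EKO-labelled library was above every CtrV library. The difference was 0.53 ± 0.13 (log2, SE; edgeR adjusted p = 0.00702) with OVA and 0.57 ± 0.13 (adjusted p = 0.00513) without. Without CtrV_OVA replicate 2 the first was 0.43 with an adjusted p of 0.0506.

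H2-T22 (ENSMUSG00000056116; chromosome 17, 36037128 to 36042747, minus strand), a ligand of gamma delta T cell receptors, showed the same separation. It was at 49.4, 53.4 and 60.9 CPM in CtrV_ut and at 70.6, 50 and 51.4 CPM in CtrV_OVA. In EKO_ut it was at 77.7, 113 and 100.99 CPM and in EKO_OVA at 95.5, 84.5 and 98.4 CPM. The lowest EKO-labelled library, EKO_ut replicate 1, was above the highest CtrV library, CtrV_OVA replicate 1. EKO_OVA exceeded CtrV_OVA by 0.69 ± 0.16 (log2, SE; edgeR adjusted p = 0.00481), and EKO_ut exceeded CtrV_ut by 0.84 ± 0.16 (adjusted p = 0.00168). Both differences also passed when any 1 of the 6 compared libraries was left out.

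H2-Q6 (ENSMUSG00000073409; chromosome 17, 35424850 to 35430055, plus strand) and H2-Q7 (ENSMUSG00000060550; chromosome 17, 35439155 to 35443773, plus strand) belong to the Qa-2 region and showed the largest differences with the widest spread. H2-Q6 was at 6.66, 9.06 and 13.9 CPM in CtrV_ut, at 17.4, 6.16 and 6.83 CPM in CtrV_OVA, at 23.9, 19.5 and 17 CPM in EKO_ut and at 38.8, 13.3 and 30.5 CPM in EKO_OVA. The OVA-pulsed groups overlapped, because EKO_OVA replicate 2 was below CtrV_OVA replicate 1, but within each replicate number the EKO-labelled library was higher in 3 of 3 pairs. The labels do not say that equal numbers mark paired libraries, and the share of all genes with 3 of 3 is not given here. On the log2 scale the lines differed by 1.43 ± 0.36 (SE; edgeR adjusted p = 0.00794) with OVA and 1.00 ± 0.38 (adjusted p = 0.0494) without. Without EKO-labelled replicate 1 these were 1.27 (adjusted p = 0.046) and 1.05 (adjusted p = 0.0757).

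H2-Q7 was at 6.35, 7.52 and 12.7 CPM in CtrV_ut, at 12, 7.22 and 7.16 CPM in CtrV_OVA, at 19.7, 16 and 13.7 CPM in EKO_ut and at 27.8, 12.1 and 24.3 CPM in EKO_OVA. Its groups did not overlap with or without OVA, although EKO_OVA replicate 2 lay only just above CtrV_OVA replicate 1. Its log2 difference was 1.25 ± 0.28 (SE; edgeR adjusted p = 0.00421) with OVA and 0.89 ± 0.29 (adjusted p = 0.0286) without, and without EKO-labelled replicate 1 it was 1.04 (adjusted p = 0.0302) and 0.82 (adjusted p = 0.0724). The calls in unpulsed cells were the least secure ones. Leaving out single libraries gave log2 differences from 0.55 to 1.37 for H2-Q6, which passed in 1 of 6 such fits, and from 0.53 to 1.26 for H2-Q7, which passed in 2 of 6. Each lost its call without CtrV_ut replicate 1, CtrV_ut replicate 2, EKO_ut replicate 1 or EKO_ut replicate 2, and H2-Q6 also without EKO_ut replicate 3. Without the replicate covariate the adjusted p was 0.0924 for H2-Q6 and 0.0551 for H2-Q7.

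H2-Q4 (ENSMUSG00000035929; chromosome 17, 35379617 to 35385290, plus strand), a further gene of the H2-Q region, was at 43.9, 47.6 and 56.5 CPM in CtrV_ut, at 59.9, 43.7 and 45.7 CPM in CtrV_OVA, at 47.8, 62.8 and 61 CPM in EKO_ut and at 64, 50 and 70.4 CPM in EKO_OVA. The groups overlapped, although the EKO-labelled library was the higher one in 3 of 3 pairs both with and without OVA. These pairs again rest on replicate numbers alone, with no share of all genes beside them. EKO-labelled minus CtrV, the log2 value was 0.29 ± 0.15 (SE, 95% interval -0.04 to 0.63, edgeR adjusted p = 0.136) with OVA and 0.22 ± 0.15 (adjusted p = 0.268) without. It was 0.51 (adjusted p = 0.0119) with OVA when CtrV_OVA replicate 1 was left out, and 0.30 (adjusted p = 0.0447) when the 6 OVA-pulsed libraries were fitted alone.

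H2-M3 (ENSMUSG00000016206; chromosome 17, 37270220 to 37274484, plus strand), which presents formylated peptides, had close to 1 level throughout. It was at 43.2, 46.7 and 51.1 CPM in CtrV_ut, at 47.4, 45 and 48.1 CPM in CtrV_OVA, at 43, 52.3 and 50.2 CPM in EKO_ut and at 47.9, 45.9 and 51.3 CPM in EKO_OVA. All 4 groups overlapped, and the highest library was 1.22 times the lowest within the EKO-labelled line. On the log2 scale the difference was 0.04 ± 0.07 (SE, 95% interval -0.11 to 0.20, edgeR adjusted p = 0.627) with OVA and 0.05 ± 0.07 (95% interval -0.11 to 0.20, adjusted p = 0.613) without, and under upper-quartile scaling the latter turned to -0.0039.

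Cd1d1 (ENSMUSG00000028076; chromosome 3, 86995834 to 86999441, minus strand), the lipid-presenting chain, was at 11.2, 14 and 16.9 CPM in CtrV_ut and at 15.4, 12.7 and 13.6 CPM in CtrV_OVA. In EKO_ut it was at 23.6, 12.8 and 11.6 CPM and in EKO_OVA at 25.5, 12.1 and 19.7 CPM. Both EKO-labelled replicate 1 libraries were above every other library, with a mean of 24.5 CPM against 14 CPM in EKO-labelled replicates 2 and 3. The log2 difference was 0.43 ± 0.24 (SE, 95% interval -0.11 to 0.97, edgeR adjusted p = 0.172) with OVA and 0.12 ± 0.25 (adjusted p = 0.716) without, and the latter was -0.14 without EKO_ut replicate 1 and -0.22 without CtrV_ut replicate 1. Without both EKO-labelled replicate 1 libraries the values were 0.15 (adjusted p = 0.575) and -0.23 (adjusted p = 0.38). With the 6 OVA-pulsed libraries fitted alone the first was 0.42 with an adjusted p of 0.0467.

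Mr1 (ENSMUSG00000026471; chromosome 1, 155127277 to 155146814, minus strand) was the rarest member, with 29 to 52 counts in a library. It was at 1.69, 1.18 and 1.1 CPM in CtrV_ut, at 1.41, 1.45 and 1.19 CPM in CtrV_OVA, at 1.47, 1.58 and 1.25 CPM in EKO_ut and at 1.28, 0.933 and 1.23 CPM in EKO_OVA. The groups overlapped, and no difference was detectable at this depth. Its log2 difference was -0.23 ± 0.18 (SE, 95% interval -0.64 to 0.18, edgeR adjusted p = 0.335) with OVA and 0.12 ± 0.19 (95% interval -0.29 to 0.54, adjusted p = 0.62) without.

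**Figure D2:**
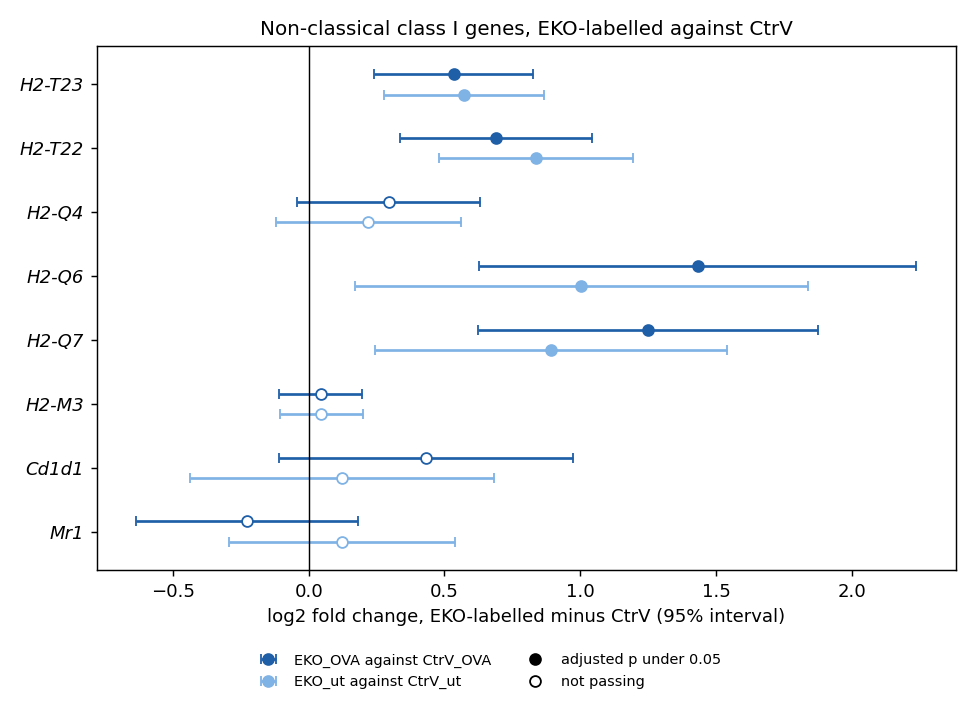
Log2 fold change of EKO-labelled against CtrV cells with its 95% interval for each member, with OVA (dark) and without (light), where filled points passed an adjusted p under 0.05. The intervals of H2-T23, H2-T22, H2-Q6 and H2-Q7 lie above 0 in both comparisons, and those of H2-M3 stay between -0.11 and 0.20.

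Averaged over pulsing, the lines differed by 1.22 ± 0.26 for H2-Q6 (log2, SE; edgeR adjusted p = 0.00209), 1.07 ± 0.20 for H2-Q7 (adjusted p = 0.000946), 0.76 ± 0.11 for H2-T22 (adjusted p = 0.000177) and 0.55 ± 0.09 for H2-T23 (adjusted p = 0.000452). These were again 4 of 8 members, all higher, against 31.3% of genes higher, 29.1% lower and 60.5% in either direction. All 6 EKO-labelled libraries exceeded all 6 CtrV libraries in 2 members, H2-T22 and H2-T23, and in 18.9% of all tested genes. H2-Q4 stood just outside the threshold, at 0.26 ± 0.11 with an edgeR adjusted p of 0.0604.

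OVA pulsing was compared within each line to ask whether antigen changed these genes on top of LPS. No member passed, as 0% of the tested genes passed in either line by edgeR, and DESeq2 and limma voom also called 0 genes. No member had non-overlapping groups either, where 1.98% of genes in CtrV lay entirely above and 2.39% entirely below with OVA, and 2.34% and 2.56% did so in EKO-labelled cells. At an unadjusted p under 0.05 there were 231 genes in CtrV, 394 in EKO-labelled cells and 0 members in both. The members' log2 differences, OVA-pulsed minus unpulsed, lay between -0.06 and 0.08 in CtrV and between -0.32 for Mr1 and 0.37 for H2-Q6 in EKO-labelled cells. The 95% interval was narrow for H2-M3 (-0.16 to 0.15 in EKO-labelled cells) and wide for H2-Q6 (-0.40 to 1.14), so differences within it were not detectable with these libraries.

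The dependence of the line difference on pulsing was tested as an interaction. By edgeR 0% of genes passed, as with DESeq2 and limma voom, with 269 genes and 0 members at an unadjusted p under 0.05. The estimates ran from -0.35 for Mr1 to 0.43 for H2-Q6, the latter with a 95% interval of -0.73 to 1.59. Larger values of H2-Q6 and H2-Q7 with OVA than without were therefore within the spread of the libraries.

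The members were also ordered by level, as CPM per kb of exon so that genes of different length can be set side by side. H2-T23 was highest in all 4 groups, at 45 ± 6.67 (SD, n = 3) CPM per kb in CtrV_ut, 45.4 ± 6.36 in CtrV_OVA, 66.6 in EKO_ut (SD 10.099) and 65.9 ± 3.45 in EKO_OVA. H2-M3 followed at 32.6 to 33.7 CPM per kb on average, and Mr1 was lowest at 0.192 to 0.24. In CtrV cells H2-Q4 (19 and 19.2 CPM per kb without and with OVA) came before H2-T22 (16 and 16.8), with overlapping libraries. In EKO-labelled cells H2-T22 (28.5 and 27.2) came before H2-Q4 (22 and 23.7), again overlapping, and without OVA H2-T22 also overlapped H2-M3.

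Below these, Cd1d1 was at 5.48 and 5.4 CPM per kb and H2-Q6 at 4.74 and 4.86 in CtrV cells without and with OVA, and their libraries overlapped. In EKO-labelled cells H2-Q6 (9.66 and 13.2) came before Cd1d1 (6.22 and 7.43), with overlap between them and between Cd1d1 and H2-Q7 (3.87 and 5.02). H2-Q7 did not overlap Mr1 in any group. The order of the means was the same with the length of the longest transcript of any type, which raised Mr1 to between 0.357 and 0.446 CPM per kb. That length was close to all exon bases in some members, with 4209 of 4265 bases in H2-Q7 and 2596 of 2596 in H2-Q4. The coding transcripts of H2-Q7 held only 1669 distinct 50-base runs. The second length is therefore not a separate check, and the order by coding length was not computed.

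**Figure D3:**
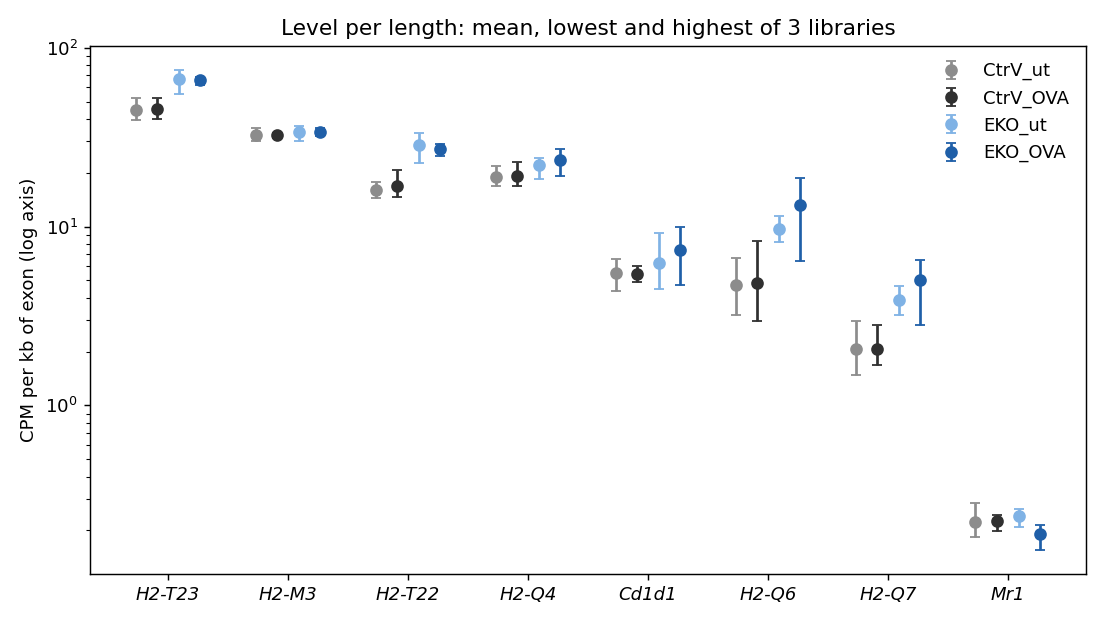
CPM per kb of exon on a log axis for the 8 members, as the mean with the lowest and highest of 3 libraries in each group. H2-T23 stands highest and Mr1 lowest in every group, and H2-T22, H2-Q6 and H2-Q7 shift upward in the EKO-labelled groups while H2-M3 stays at 32.6 to 33.7.

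Counts of close copies were then compared, since reads could be placed on either one. H2-Q7 took 40.9% to 54% of the summed H2-Q6 and H2-Q7 counts in CtrV libraries and 41.7% to 47.5% in EKO-labelled ones. H2-T10 took 21% to 23.5% of the sum with H2-T22 in CtrV and 20.5% to 22.6% in EKO-labelled libraries, and Cd1d2 took 13.3% to 14.9% and 11.4% to 13.9% of the sum with Cd1d1. The ranges of the lines overlapped for all 3 pairs. Not covered by these pairs is H2-Q5, which held 17.4% of the 50-base runs of H2-Q7, against 17% in H2-Q6. H2-Q8 and H2-Q9 had no row in the count table. Summed into 1 feature, H2-Q6 and H2-Q7 differed between the lines by 1.35 with OVA (log2; edgeR adjusted p = 0.00622) and 0.95 without (adjusted p = 0.0382). H2-T22 and H2-T10 together differed by 0.69 (adjusted p = 0.00458) and 0.81 (adjusted p = 0.00195). Cd1d1 and Cd1d2 together, a sum added after the data were seen, gave 0.42 (adjusted p = 0.178) and 0.09 (adjusted p = 0.789).

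**Figure D4:**
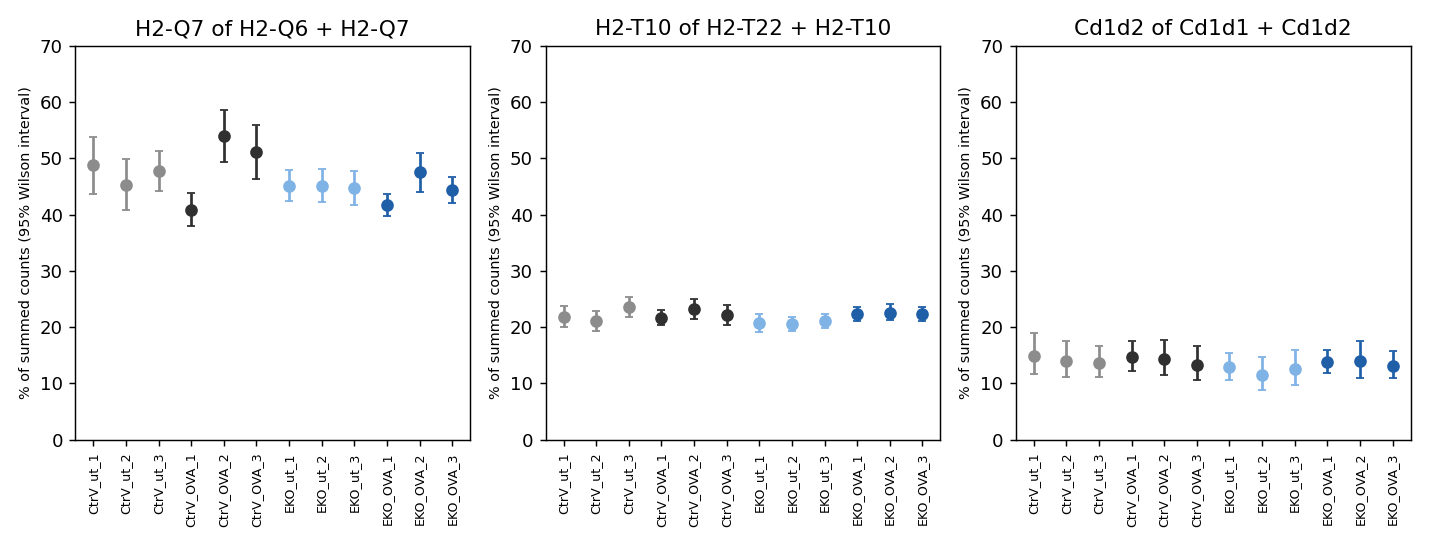
Percent of the summed counts of a gene and its close copy that fell on the copy, in each of the 12 libraries, with 95% Wilson intervals that cover counting error only. H2-Q7 takes 40.9% to 54%, H2-T10 20.5% to 23.5% and Cd1d2 11.4% to 14.9%, with overlapping ranges in the 2 lines.

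Of 23 other non-classical class I genes with a row, 8 were tested. With OVA 3 of these rose and 1 fell under the EKO label, and without OVA 2 were higher and 1 lower. H2-T24 rose from 3.42 ± 2.35 to 16.2 ± 3.25 CPM with OVA (mean ± SD, n = 3), a log2 difference of 2.14 ± 0.47 (SE; edgeR adjusted p = 0.0035) that was 3.27 without CtrV_OVA replicate 1 and 1.70 without CtrV_OVA replicate 2. H2-T10, the close copy of H2-T22, differed by 0.70 ± 0.16 (adjusted p = 0.00433). H2-M2 fell by 2.16 ± 0.20 (adjusted p = 1.03e-05), from 4 to 0.892 CPM, and without OVA it fell by 3.26 ± 0.25 (adjusted p = 2.53e-06). These counts are near the shares of all genes given above (25.1% higher and 21.9% lower with OVA).

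The classical chains and the light chain were split as well. H2-K1 was at 263 CPM on average in CtrV_OVA and 594 CPM in EKO_OVA, a log2 difference of 1.17 ± 0.10 (SE; edgeR adjusted p = 5.89e-06), and B2m, the light chain, differed by 0.63 ± 0.16 (adjusted p = 0.00892). H2-D1, named here after its values were seen, did not pass, at 0.17 ± 0.10 (adjusted p = 0.167) with OVA and 0.11 ± 0.10 (adjusted p = 0.403) without. The H2-K1 and H2-D1 stretches printed above carry the same 2 capital motifs, and any part of these motifs in the responses was not tested. Without OVA the values were 1.10 ± 0.10 for H2-K1 and 0.58 ± 0.16 for B2m (adjusted p = 9.76e-06 and 0.0136). B2m lost its call without CtrV_OVA replicate 2 or 3, where the adjusted p reached 0.0599, and in unpulsed cells without CtrV_ut replicate 1, EKO_ut replicate 2 or EKO_ut replicate 3, where it reached 0.0729.

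Of 8 genes of peptide loading and editing, 5 were higher and 3 lower with OVA, and 5 were higher and 2 lower without. Among all tested genes, 25.1% were higher and 21.9% lower with OVA, and 24.5% and 21.9% without. Tap1 and Tap2, the peptide transporter of the endoplasmic reticulum, differed by 1.39 ± 0.13 (log2, SE; edgeR adjusted p = 8.88e-06) and 0.95 ± 0.06 (adjusted p = 9.42e-07) with OVA. The peptide editor Tapbpl (0.46), the bridging factor Tapbp (0.22) and the trimming peptidase Erap1 (0.18) were also higher. The general chaperones Pdia3, Calr and Canx fell by 0.39, 0.34 and 0.15 on the log2 scale. Tapbp and Canx passed in 13 and 12 of 19 alternative fits only.

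Of 11 regulators of class I transcription, 3 were higher and 0 lower with OVA, and 3 were higher and 2 lower without. Of all tested genes 47% passed in either direction with OVA and 46.4% without, so these counts did not exceed the background. Nlrc5, the class I transactivator, was at 28.9 CPM in CtrV_OVA and 98.3 CPM in EKO_OVA on average, a log2 difference of 1.75 ± 0.25 (SE; edgeR adjusted p = 0.000193). The NF-kappaB subunit gene Nfkb1 differed by 0.83 ± 0.07 (adjusted p = 5.63e-06). Rela, the partner subunit, differed by 0.16 ± 0.05 (adjusted p = 0.0264) with OVA and passed in 12 of 19 alternative fits. Without OVA the log2 differences were 2.04 for Nlrc5, 0.79 for Nfkb1 and 0.23 for Irf1, and Rfxap and Nfyb fell by 0.24 and 0.19. Irf1, Rfxap and Nfyb each lost the call in 7 to 9 of 19 alternative fits.

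**Figure D5:**
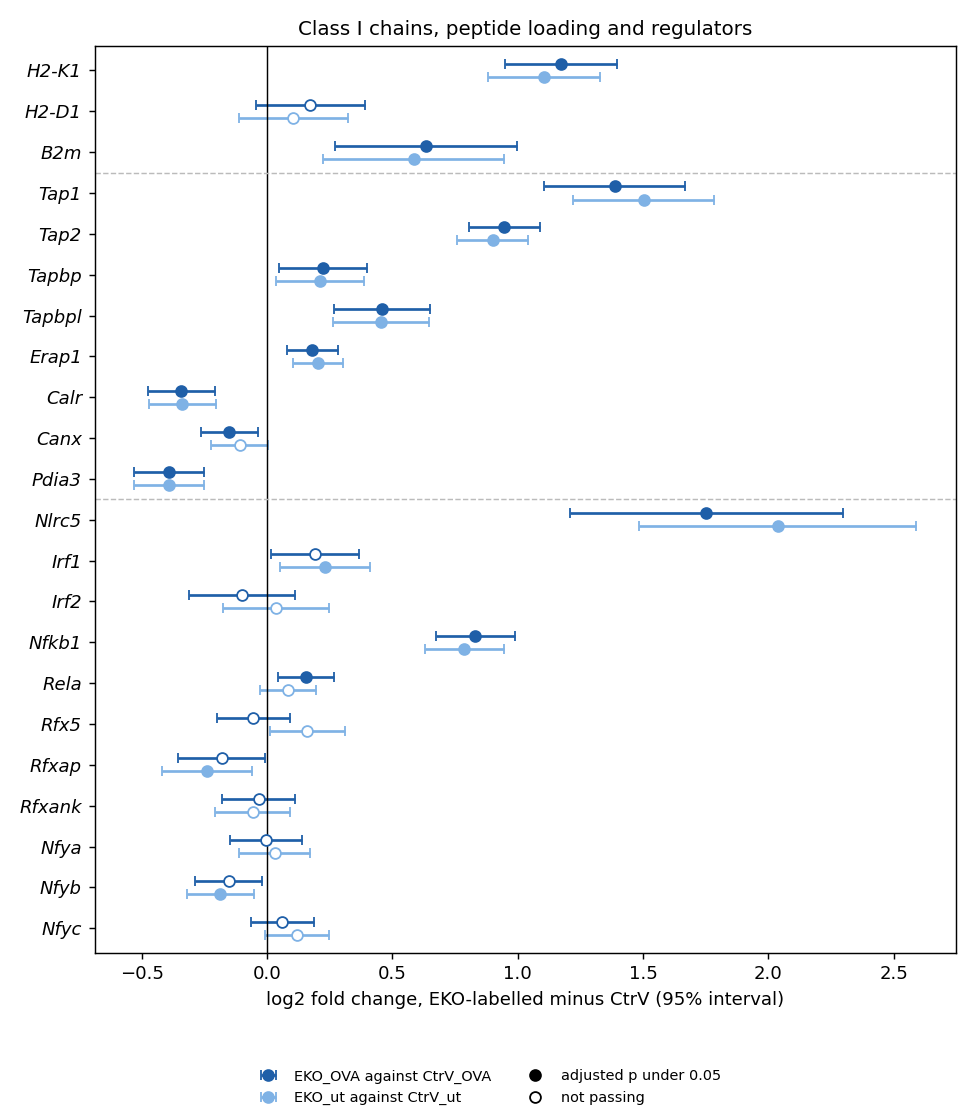
Log2 fold change of EKO-labelled against CtrV cells with 95% intervals for the classical chains and light chain, the peptide loading genes and the regulators (separated by dashed lines), with OVA (dark) and without (light). Nlrc5, Tap1 and H2-K1 lie above 1 in both comparisons, H2-D1 has intervals that include 0, and Calr and Pdia3 lie below 0.

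Of 10 genes that load lipids onto CD1d, 2 were higher, 3 lower and 5 did not pass in each comparison, near the background of 47% with OVA and 46.4% without. Gm2a, the GM2 activator, fell by 1.47 ± 0.06 (log2, SE; edgeR adjusted p = 4.34e-08) with OVA, from 624 to 224 CPM, and the saposin precursor Psap by 0.67 ± 0.05 (adjusted p = 3.59e-06). The lysosomal protease Ctsl rose by 1.58 ± 0.13 (adjusted p = 3.95e-06). Of 5 tested class I-fold genes outside the H2 complex, 2 were higher and 2 lower in each comparison. Of all tested genes 47% passed in either direction with OVA and 46.4% without, and no excess over this share was tested. On the same strand, Raet1e of this list shares 23% of its exon bases with H60b and Raet1d, and the part of this in its counts was not tested. Raet1e, an NKG2D ligand, differed by 2.20 ± 0.20 (adjusted p = 9.78e-06) with OVA, at low levels of 0.633 CPM in CtrV_OVA and 2.88 CPM in EKO_OVA. Procr, the protein C receptor, differed by 1.60 ± 0.26 (adjusted p = 0.000488) with OVA, while the iron regulator Hfe fell by 0.47 ± 0.06 (adjusted p = 5.88e-05). Ulbp1, of the same list, fell without OVA by 0.62 ± 0.16 (edgeR adjusted p = 0.00885), from 93.4 to 60.5 CPM.

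Finally, the genes whose mean-centred log2 CPM profile over the 12 libraries was nearest to each member were listed, as a description. The nearest were B2m for H2-T23 (root-mean-square difference 0.0766), Il15 (0.0772) and H2-T10 (0.0778) for H2-T22, and Selenow (0.0969) for H2-Q4, with H2-D1 the third nearest (0.108). H2-Q6 and H2-Q7 were near to each other (0.206), and Stx11 was the nearest to H2-Q6 (0.192). For Cd1d1 the nearest were Dusp5 (0.115) and its copy Cd1d2 (0.116). These compare with a spread (SD of log2 CPM over the libraries) of 0.33 for H2-T23, 0.44 for H2-T22, 0.24 for H2-Q4, 0.87 for H2-Q6 and 0.40 for Cd1d1. The members and their copies share stretches of sequence, and the part of this in their nearness was not tested.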

How the data were processed

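The authors deposited raw read counts per gene for 12 libraries in 1 table. Per their methods, reads were aligned to mm10 with STAR, reads that fitted several places were given a single location, and read ends on exons of an Ensembl gene model were counted with featureCounts. Library preparation was stranded per the labels. From these counts, genes were kept where 2 or more libraries had a log2 CPM over 0, and TMM factors were computed. edgeR 4.0.16 fitted all 12 libraries (R 4.3.3) with group and replicate number, and p-values were adjusted by Benjamini-Hochberg over 14079 genes. Alternatives used DESeq2 1.42.0 and limma 3.58.1. The edgeR, DESeq2 and limma voom fits of EKO_OVA against CtrV_OVA were tested on simulated counts, and the other steps were not. Symbols, positions and lengths came from GENCODE (GRCm38). The members and all lists were chosen with earlier results of these data known. A gene of the regulator list and a promoter motif are not reported here. Named are members, passing genes of the class I, loading and regulator lists, and up to 3 genes of each other list with the smallest p. Deviations of same-numbered OVA-pulsed libraries correlated between lines by 0.448, 0.292 and 0.289 for replicates 1, 2 and 3, those of unpulsed ones by 0.0602, -0.0118 and 0.263, and those of EKO_ut and EKO_OVA by 0.706, 0.351 and 0.411; the replicate term follows the study's methods.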

Additional observations from a re-analysis of the deposited data

How the results depend on the processing

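H2-T22 kept its direction and its call in all fits of the 3 line comparisons apart from a minimum absolute log2 change of 1, and H2-T23 did so with 1 further exception, given above. With that minimum 1268 genes and 2 members passed with OVA, 1241 genes and 1 member without, and 1254 genes and 2 members averaged. Without OVA 2 members passed at an adjusted p under 0.01, 2 without replicate 1 of all groups (an alternative added after the data were seen) and 2 with no replicate block; leaving out replicates gave 2 to 4. The block changed no other call among the members. Without replicate 1 of all groups, 5 genes and no member depended on pulsing, and 4 genes differed between EKO_OVA and EKO_ut. H2-Q6 without OVA also missed the threshold with DESeq2 (0.0842), upper-quartile scaling (0.0565) and a minimum of 10 counts (0.0502). Averaged, H2-Q4 passed with DESeq2 (0.0323), with no filter (0.024), without CtrV_OVA replicate 1, EKO_ut replicate 1 or EKO_OVA replicate 2 (0.00528 to 0.0383), without EKO replicate 1 (0.0319) and without replicate 1 of all groups (0.00417); with OVA it passed in the latter fit (0.0119) and with the 6 compared libraries alone (0.0447).

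In the line comparisons, the members' signs turned only in values of H2-M3, Cd1d1 and Mr1 that did not pass. Under upper-quartile scaling H2-M3 without OVA was -0.0039. Without replicate 1 of all groups Cd1d1 was -0.34 without OVA and -0.0386 averaged, and Mr1 averaged 0.0134. Leaving out replicates, Cd1d1 ran from -0.23 to 0.37 without OVA and from -0.0405 to 0.40 averaged, H2-M3 from -0.0034 to 0.10 with OVA and -0.036 to 0.11 without, and Mr1 from -0.12 to 0.030 averaged. The causes were not tested. Counts were lowest for Mr1, and the SD of log2 CPM over the libraries was highest for H2-Q6 and H2-Q7.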
